A study of Rattus norvegicus with 16 samples.

Results

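Branched-chain amino acid breakdown was followed through 10 genes: the aminotransferase gene Bcat2, the dehydrogenase complex genes Bckdha, Bckdhb and Dbt, their regulators Bckdk and Ppm1k, the leucine branch genes Ivd, Mccc1 and Mccc2, and the valine branch gene Hibadh. They were chosen by name, and all 10 were measured, each by 1 probe set, among 22093 genes. Male Wistar rats of the RccHan stock, 7 to 8 weeks old, gave apex tissue of the left ventricle, whose RNA was hybridised to 16 Affymetrix whole-transcript arrays. The 4 groups were rats fed 3000 ppm phenformin in the diet for 14 days, control rats on untreated food at day 14, rats fed 3000 ppm phenformin for 3 days, and control rats on untreated food at day 3. Each group has 4 arrays that the labels call biological replicates, while the protocol names 5 animals per group. Phenformin is a biguanide, a glucose-lowering drug that acts on the respiratory chain at complex I.

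Leucine, isoleucine and valine are broken down in mitochondria. BCAT2 removes the amino group, and a dehydrogenase complex then removes the carboxyl group in the step that commits the carbon skeleton to oxidation. A kinase, BCKDK, phosphorylates the complex and holds it inactive, and a phosphatase, PPM1K, removes the phosphate. The skeletons then pass through separate enzymes for leucine, isoleucine and valine towards acetyl-CoA and propionyl-CoA. In the heart, reduced expression of this pathway is known from pressure overload and failure in mice and humans.

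None of the 10 genes passed the test in any of 5 comparisons (limma, Benjamini-Hochberg adjusted p under 0.05 over all genes). Control hearts at day 14 held the highest mean of the 4 groups in 9 of the 10 genes, all but Mccc2. The share of all genes with day 14 controls highest was not counted. Of all genes, 57.8% were lower with phenformin at day 14 and 54.3% were higher in day 14 than in day 3 controls. Dbt and Ivd lay lower in every day 14 phenformin array than in every day 14 control, as did 3.09% of all genes. Among 24 other genes of the pathway, 1 passed, over both days, where 1.21% of all genes passed. It was Acadsb, a dehydrogenase gene of the isoleucine branch, which fell with phenformin to 0.606 times control. That call, at adjusted p = 0.0448, was lost in 19 of 29 alternative settings.

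The promoters of Ivd, Dbt and Acadsb are shown because these 3 pathway genes had the lowest day 14 changes. They are RefSeq sequences of the GRCr8 build, 250 bases before to 50 after the gene start, on the plus strand at chr3:126305334-126305633, chr2:207166410-207166709 and chr1:195618966-195619265. Capitals mark the CACCC box (CACCC or GGGTG), the kind of sequence bound by Krüppel-like factors, and the GC box (GGGCGG or CCGCCC), bound by Sp factors and some Krüppel-like factors.
Ivd: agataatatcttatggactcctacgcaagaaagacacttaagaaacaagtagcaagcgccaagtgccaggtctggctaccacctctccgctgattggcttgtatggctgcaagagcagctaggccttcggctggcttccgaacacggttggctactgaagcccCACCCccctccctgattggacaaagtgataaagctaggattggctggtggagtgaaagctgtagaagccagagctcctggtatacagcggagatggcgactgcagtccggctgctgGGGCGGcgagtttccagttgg
Dbt: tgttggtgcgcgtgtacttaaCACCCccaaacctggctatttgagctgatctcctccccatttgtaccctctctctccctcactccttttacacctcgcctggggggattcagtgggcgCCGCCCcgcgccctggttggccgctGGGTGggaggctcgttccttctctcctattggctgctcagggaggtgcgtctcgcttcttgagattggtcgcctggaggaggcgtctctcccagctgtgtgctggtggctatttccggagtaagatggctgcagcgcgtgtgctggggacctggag
Acadsb: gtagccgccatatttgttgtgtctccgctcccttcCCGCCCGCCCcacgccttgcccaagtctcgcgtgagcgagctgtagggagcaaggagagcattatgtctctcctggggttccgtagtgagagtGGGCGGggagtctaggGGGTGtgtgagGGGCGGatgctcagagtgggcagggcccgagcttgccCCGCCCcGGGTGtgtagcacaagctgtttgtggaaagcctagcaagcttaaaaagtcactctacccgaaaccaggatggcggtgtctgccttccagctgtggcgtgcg

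The promoter table held 7 of the 10 genes: Bcat2, Bckdhb, Dbt, Bckdk, Ivd, Mccc1 and Hibadh. All 7 held the CACCC box and all 7 the GC box on either strand, against 54.9% and 33.1% of all 33469 promoters of the same 300 bases. The promoters compared were not matched for base composition or expression. The promoter of Acadsb held 2 CACCC boxes and 5 GC boxes, some of which overlap each other. That of Ivd held 1 of each, with the GC box after the gene start. Dbt held 2 CACCC boxes and 1 GC box. The other 6 of 8 motifs searched on both strands had no match in the 7 promoters: the E-box CACGTG (6.42% of all promoters), the extended nuclear receptor half-site AAGGTCA (4.61%), the direct nuclear receptor element TGACCTTTG (0.424%), the ETS motif CCGGAAG (8.75%), the CARE-like motif TTGCATCA (0.795%) and the CRE motif TGACGTCA (1.83%). A match in these windows describes the letters only.

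Values are the log2 of the deposited RMA intensity. A change is a difference of group means with its standard error (SE), and every group mean rests on 4 arrays. How the deposited values came to a linear scale is not stated in the labels or notes, so folds refer to that scale. Levels are compared between groups for 1 gene at a time, never between genes. In bulk tissue, fewer cells of a type and less RNA per cell cannot be told apart.

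Correlations between arrays over genes lay between 0.989 and 0.995, and array medians between 4.935 and 5.13 on the log2 scale. At the bright end the arrays differed more. An upper percentile of log2 values ran from 16.93 (day 14 control replicate 3) to 17.79 (day 3 phenformin replicate 1). Values with quantiles normalised again are given under the dependence on processing. Markers of cardiomyocytes averaged a log2 level of 17.51 to 17.64 over 9 of 10 listed genes in the 16 arrays, and the adipocyte list 4.85 to 5.20 over 6 genes. No marker value was at 0, and the lowest log2 value was 3.32, for the fat cell gene Cidec. Day 14 phenformin replicate 4 and day 3 control replicate 3 lay farthest apart from the rest on the first principal component. Without both, 0 of the 10 genes passed in each of the 5 comparisons.

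BCAT2 is the mitochondrial aminotransferase that starts the pathway in heart and skeletal muscle. Bcat2 had log2 levels of 9.58, 9.82, 9.94 and 9.84 in day 14 phenformin hearts and 9.95, 10.36, 9.92 and 10.19 in day 14 controls. In day 3 phenformin hearts it stood at 9.84, 9.95, 9.83 and 9.81, against 9.69, 10.03, 9.56 and 9.56 in day 3 controls. The groups overlapped on both days. The log2 change was -0.31 at day 14 (SE 0.116, adjusted p = 0.332) and 0.15 at day 3 (SE 0.116, adjusted p = 0.782). Bcat1, the cytosolic aminotransferase, had changes of 0.20 at day 14 (SE 0.130) and -0.011 at day 3 (SE 0.130), and neither passed the test.

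Bckdha and Bckdhb encode the alpha and beta subunits of the decarboxylase, the first component of the dehydrogenase complex; the alpha subunit carries the site that BCKDK phosphorylates. Bckdha stood at 8.94, 9.15, 9.09 and 8.997 in day 14 phenformin hearts and 9.14, 9.22, 9.04 and 9.06 in day 14 controls. At day 3 its levels were 8.84, 9.145, 8.87 and 9.001 with phenformin and 8.77, 8.80, 8.70 and 8.61 in controls. Day 3 controls were the low group: all 4 treated arrays lay above all 4 of them, by margins that were small for replicates 1 and 3. The change was 0.24 at day 3 (SE 0.0792, 95% interval 0.076 to 0.412, adjusted p = 0.245) and -0.070 at day 14 (SE 0.0792). Bckdhb had means of 13.07 ± 0.253 (SD) with phenformin and 13.27 ± 0.119 in controls at day 14, and 12.85 ± 0.102 with phenformin and 12.97 ± 0.173 in controls at day 3. Its groups overlapped on both days, with changes of -0.20 at day 14 and -0.11 at day 3 (SE 0.114 each).

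Dbt encodes the transacylase core of the complex, onto which the other components are built. Its log2 levels were 15.10, 15.07, 15.18 and 15.07 in day 14 phenformin hearts and 15.26, 16.02, 15.75 and 15.37 in day 14 controls. At day 3 they were 14.94, 15.11, 15 and 15.09 with phenformin and 15.23, 15.20, 15.24 and 15.13 in controls. The treated arrays lay below all controls on both days, narrowly at day 3, and the day 14 controls were widely scattered (SD 0.348 against 0.0517 in treated hearts). The log2 change was -0.50 at day 14 (SE 0.119, 95% interval -0.748 to -0.244, adjusted p = 0.126) and -0.17 at day 3 (SE 0.119, adjusted p = 0.758). Over both days it was -0.33 (SE 0.0841), with adjusted p = 0.0674. Dbt passed in this pooled comparison in 3 of 29 alternative settings. These were without day 14 control replicate 1 (log2 change -0.388, adjusted p = 0.0299) or replicate 4 (-0.37, adjusted p = 0.0448), and with array weights. Replicates 1 and 4 were the lowest day 14 controls for Dbt. Over all 29 settings the adjusted p in limma ran from 0.0299 to 0.235. Dld, the component that this complex shares with the pyruvate and oxoglutarate dehydrogenases, had -0.048 at day 14 and -0.20 at day 3 (SE 0.0994 each).

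**Figure D1:**
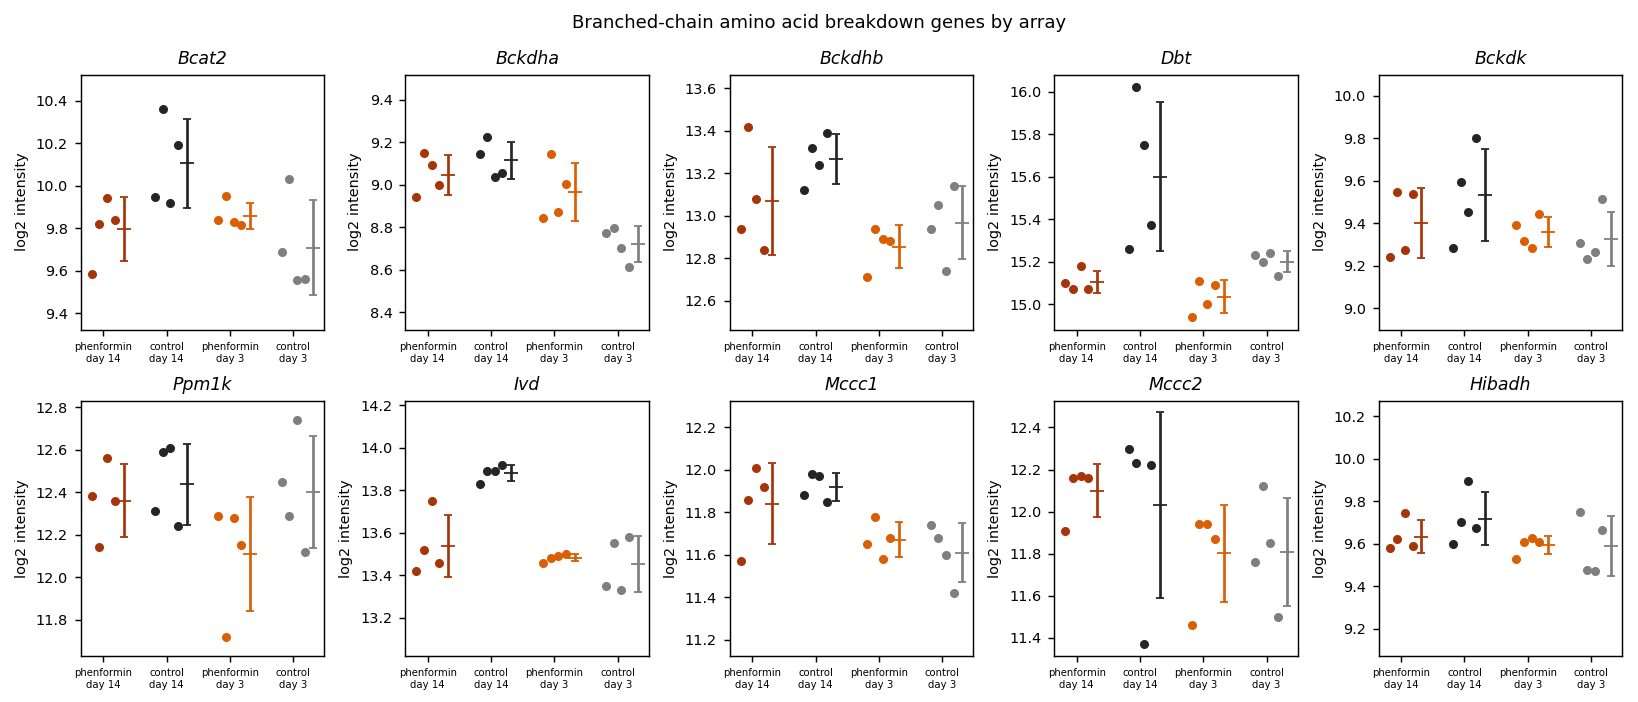
Log2 intensity of the 10 genes in each array (vertical axis, its own range in every panel) by group, with 4 arrays a group as points and the group mean ± SD beside them. In the panels of Dbt and Ivd the 4 day 14 phenformin points lie below the 4 day 14 control points.

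The regulators of the complex showed no change past the test. Bckdk, the inhibiting kinase, stood at 9.24, 9.55, 9.27 and 9.54 in day 14 phenformin hearts and 9.29, 9.59, 9.46 and 9.80 in day 14 controls. At day 3 it stood at 9.39, 9.32, 9.28 and 9.44 with phenformin and 9.30, 9.23, 9.26 and 9.51 in controls. These ranges overlapped on both days, and the changes were -0.13 at day 14 and 0.031 at day 3 (SE 0.106 each). The 95% interval was -0.357 to 0.091 at day 14 and -0.193 to 0.255 at day 3. Ppm1k, the activating phosphatase, had 12.38, 12.14, 12.56 and 12.36 with phenformin and 12.31, 12.59, 12.61 and 12.24 in controls at day 14. At day 3 it had 12.29, 11.72, 12.28 and 12.15 with phenformin and 12.45, 12.29, 12.74 and 12.12 in controls. The change of Ppm1k was -0.29 at day 3 (SE 0.146, 95% interval -0.597 to 0.02, adjusted p = 0.578) and -0.080 at day 14 (SE 0.146). Without day 3 phenformin replicate 2, the lowest array, the day 3 change was -0.159.

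In the leucine branch, IVD oxidises isovaleryl-CoA, and MCCC1 and MCCC2 form the biotin-dependent carboxylase of the following step. Ivd stood at 13.42, 13.52, 13.75 and 13.46 in day 14 phenformin hearts and 13.83, 13.89, 13.89 and 13.92 in day 14 controls. At day 3 it stood at 13.46, 13.48, 13.49 and 13.50 with phenformin and 13.35, 13.55, 13.33 and 13.58 in controls. The day 14 controls stood alone above the other 12 arrays. The log2 change was -0.35 at day 14 (SE 0.0755, 95% interval -0.506 to -0.186, adjusted p = 0.0941) and 0.029 at day 3 (SE 0.0755, adjusted p = 0.960). Ivd had the smallest p of the 10 genes in the drug comparisons of the separate days.

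Mccc1 had means of 11.84 ± 0.191 with phenformin and 11.92 ± 0.0652 in controls at day 14, and 11.67 ± 0.0807 with phenformin and 11.61 ± 0.137 in controls at day 3 (SD). Its changes were -0.082 at day 14 and 0.062 at day 3 (SE 0.0909 each), and the day 14 value was 0.008 without day 14 phenformin replicate 1. Mccc2 stood at 11.91, 12.16, 12.17 and 12.16 with phenformin and 12.30, 12.23, 11.37 and 12.22 in controls at day 14. Its day 14 change of 0.069 (SE 0.181) was the only one of the 10 above 0, and without control replicate 3 it was -0.151 (SE 0.135). At day 3 its change was -0.005 (SE 0.181). Auh, the hydratase of the next leucine step, had 0.080 at day 14 and 0.17 at day 3 (SE 0.0709 each).

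HIBADH oxidises the valine intermediate 3-hydroxyisobutyrate, a metabolite that leaves muscle. Hibadh had means of 9.64 ± 0.0769 with phenformin and 9.72 ± 0.126 in controls at day 14 (SD). At day 3 they were 9.60 ± 0.0445 with phenformin and 9.59 ± 0.140 in controls. The groups overlapped on both days, and the changes were -0.084 at day 14 and 0.004 at day 3 (SE 0.0795 each). The 95% interval at day 3 ran from -0.165 to 0.172. Hibch, the hydrolase just before it, had 0.20 at day 14 (SE 0.101, adjusted p = 0.491) and -0.030 at day 3.

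At day 14, then, 0 of the 10 genes passed the test with limma, where 0.0724% of all genes did, and 3 (Ivd, Dbt and Bcat2) had an unadjusted p under 0.05, against 10.8% of all genes. In 9 of 10 the change was below 0, against 57.8% of all genes, with a median of -0.109 against -0.030 over all genes. Dbt and Ivd, 2 of 10, had all treated arrays below all controls, which 3.09% of all genes did. At day 3, 0 of 10 passed against 0.566% of all genes, and 1 (Bckdha) had an unadjusted p under 0.05 against 9.38%. The median change at day 3 was 0.017. The treated arrays lay above all controls in 1 gene, Bckdha, and below them in 1, Dbt, against 2.34% and 3.87% of all genes. Over both days 0 of 10 passed against 1.21% of all genes, and Dbt and Ivd were the 2 with an unadjusted p under 0.05, against 13.0%.

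Other markers moved with these comparisons. At day 14 all 6 measured genes of the red blood cell list were below 0, with an average log2 level of 8.83 to 9.59 in phenformin hearts and 9.56 to 10.78 in controls. At day 3, fibroblast markers were below 0 in 8 of 8 genes (10.91 to 11.58 with phenformin, 11.63 to 12.02 in controls) and immediate early genes, rapidly induced transcription factors among them, in 10 of 10 (6.83 to 7.09 with phenformin, 7.38 to 9.02 in controls). The red blood cell list had 6 of 6 changes below 0 at day 3 too (9.48 to 9.95 with phenformin, 9.96 to 10.36 in controls). Over both days, the comparison in which Acadsb passed, 6 of 6 red blood cell markers and 10 of 10 immediate early genes were below 0. Of these, 2 red blood cell markers and 3 immediate early genes passed the test, where 1.21% of all genes did. Macrophage markers were below 0 in 8 of 8 genes at day 3 (7.39 to 7.66 with phenformin, 7.62 to 7.93 in controls). Their part in the values of the 10 genes and of Acadsb was not tested. Cardiomyocyte markers had a median change of 0.022 at day 14 and 0.011 at day 3.

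**Figure D2:**
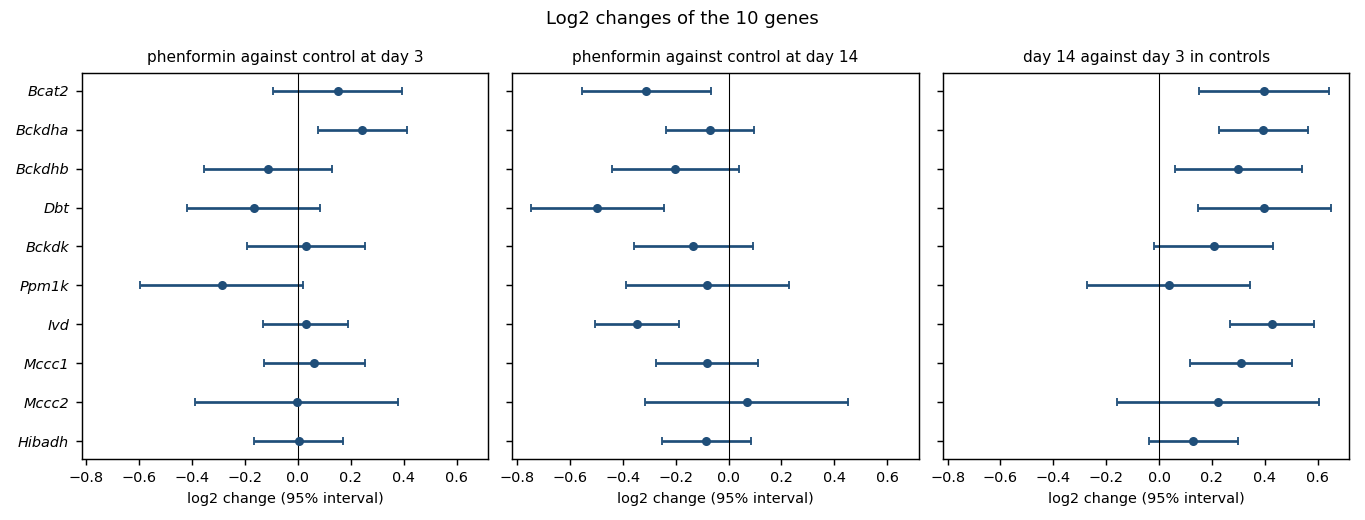
Log2 changes of the 10 genes (horizontal axis) with 95% intervals from the fit over 16 arrays, for phenformin against control at day 14 and day 3 and for day 14 against day 3 in controls. Day 14 changes with phenformin lie at or below 0 apart from Mccc2 at 0.069, and all 10 changes over time in controls lie above 0.

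Between day 3 and day 14 the control hearts differed in 1 direction: all 10 genes had higher means at day 14, with changes from 0.037 (Ppm1k) to 0.43 (Ivd). Over all genes 54.3% were above 0, and the median was 0.305 in the 10 genes against 0.014 over all genes. None of the 10 passed the test, and none of all genes did either (0% in limma). An unadjusted p under 0.05 was found in 6 of the 10, against 9.46% of all genes: Ivd, Bckdha, Bcat2, Mccc1, Dbt and Bckdhb. That count was 4 when quantiles were normalised again or normal scores of ranks were used, 5 without day 14 control replicate 4 or day 3 control replicate 3, and 5 to 7 in the other alternatives. In Ivd, Bckdha, Dbt and Mccc1 all 4 day 14 controls lay above all 4 day 3 controls, 4 of 10 against 2.52% of all genes.

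Ivd had a change of 0.43 over time in controls (SE 0.0755, 95% interval 0.267 to 0.587, adjusted p = 0.0659), or 1.34-fold. It passed, with adjusted p = 0.0494, when genes under the 25th percentile of mean level were left out. Bckdha had 0.39 (SE 0.0792, adjusted p = 0.0883), Dbt 0.40 (SE 0.119, adjusted p = 0.259), Bcat2 0.40 (SE 0.116, adjusted p = 0.247), Mccc1 0.31 (SE 0.0909, adjusted p = 0.253) and Bckdhb 0.30 (SE 0.114, adjusted p = 0.390). The kinase gene Bckdk had 0.21 (SE 0.106) and Mccc2 0.22 (SE 0.181), which was 0.442 without day 14 control replicate 3. Hibadh had 0.13 (SE 0.0795).

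The same day 14 controls serve the comparison over time and the day 14 drug comparison. The same day 3 controls serve the comparison over time and the day 3 drug comparison. The values are therefore given side by side, and comparisons that share controls do not support each other. In phenformin hearts, which do not use these controls, the day 14 mean was above the day 3 mean in 9 of 10 genes, with Bcat2 at -0.064. The share of all genes with a higher day 14 mean in phenformin hearts was not counted, so this count has no background. The difference between these means had a median of 0.074 over the 10 genes and reached 0.296 in Mccc2 and 0.246 in Ppm1k. It was not tested. Fibroblast markers were below 0 over time in controls in 7 of 8 genes, with average log2 levels of 10.95 to 11.53 at day 14 and 11.63 to 12.02 at day 3. Immediate early genes were below 0 in 9 of 10, at 7.15 to 8.13 in day 14 controls and 7.38 to 9.02 in day 3 controls. Cardiomyocyte markers lay at 17.55 to 17.59 in day 14 controls and 17.51 to 17.56 in day 3 controls. Their part in the difference between the days was not tested. In these controls the day cannot be told apart from age or from any difference in handling between the days.

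The difference between the drug effects of the separate days, day 14 minus day 3, passed the test in 0 of 10 genes and in 0% of all genes with limma. At an unadjusted p under 0.05 there were 3, against 7.00% of all genes: Ivd (-0.38, SE 0.107, adjusted p = 0.432), Bcat2 (-0.46, SE 0.164, adjusted p = 0.588) and Bckdha (-0.31, SE 0.112, adjusted p = 0.588). Of all genes, 44.8% lay above 0 in this difference. Ppm1k had 0.21 (SE 0.206) and Mccc2 0.074 (SE 0.256), and the other 8 of the 10 genes lay below 0. A drug effect that differs between the days was therefore not shown for any of these genes.

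In order of group means, control hearts at day 14 were highest in 9 genes and phenformin hearts at day 14 in Mccc2. How many of all genes have day 14 controls highest was not counted. The lowest mean belonged to day 3 controls in 6 genes and to day 3 phenformin hearts in 4 (Bckdhb, Dbt, Ppm1k and Mccc2). For Ivd only the first step of this order exceeded the spread: day 14 controls stood apart, while the other 3 groups overlapped. For Dbt the order was day 14 controls, day 3 controls, day 14 phenformin and day 3 phenformin hearts, and only the first step exceeded the spread between arrays: day 3 controls overlapped day 14 phenformin hearts, which overlapped day 3 phenformin hearts.

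The mean of the 10 genes, as a deviation from the 16-array mean, lay between -0.109 and 0.104 in day 14 phenformin arrays and 0.092 and 0.315 in day 14 controls. At day 3 it lay between -0.165 and -0.071 with phenformin and -0.150 and -0.033 in controls. Phenformin replicate 1 was the lowest array of its group at both days. For 15 citric acid cycle genes the median change was -0.021 at day 14, -0.029 at day 3 and 0.030 over time in controls. For 16 fatty acid oxidation genes it was 0.125 at day 14, 0.103 at day 3 and 0.106 over time in controls, and 14 of the 16 lay above 0 at day 14, where 1 of the 10 branched-chain genes did. No test of the difference between these lists was made.

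**Figure D3:**
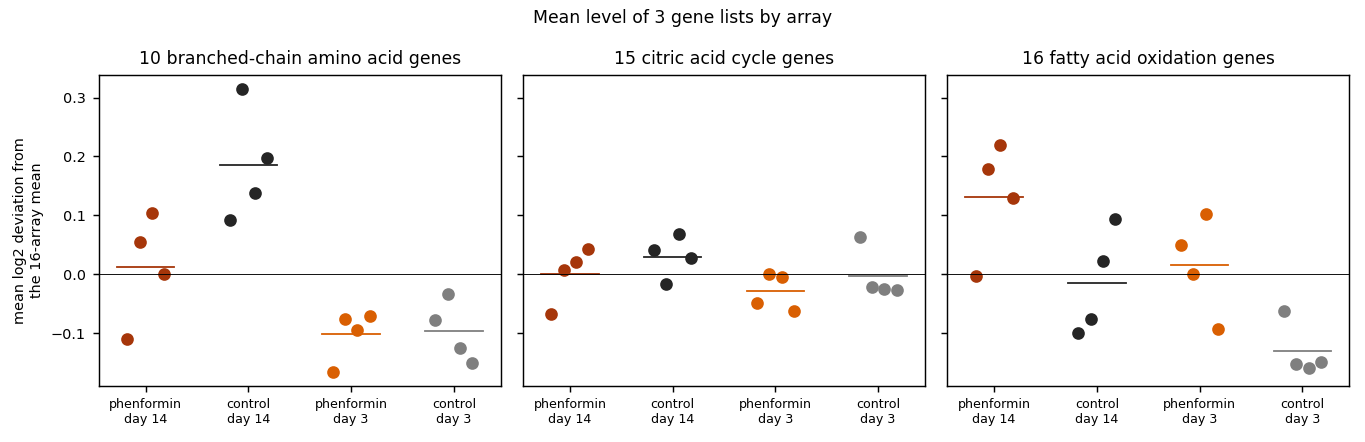
Mean log2 deviation from the 16-array mean (vertical axis) of the 10 branched-chain amino acid genes, 15 citric acid cycle genes and 16 fatty acid oxidation genes, 1 point for each array and a line at the group mean. The branched-chain genes are highest in day 14 controls (0.092 to 0.315), and the fatty acid oxidation genes have their highest group mean, 0.131, in day 14 phenformin hearts.

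Of 25 further genes listed for the pathway, 24 were measured. Over both days 1 of them fell and 0 rose past the test, against 1.21% of all genes. At day 14 and at day 3 separately 0 passed with limma, against 0.0724% and 0.566% of all genes. At an unadjusted p under 0.05 there were 4 over both days, 1 at day 14 and 4 at day 3, against 13.0%, 10.8% and 9.38% of all genes. Their median change was -0.045 at day 14, -0.015 at day 3 and 0.086 over time in controls, with 9, 10 and 18 of 24 above 0, against 42.2%, 50.1% and 54.3% of all genes.

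Acadsb, which encodes the dehydrogenase of 2-methylbutyryl-CoA in isoleucine breakdown, was the gene that fell. Its levels were 13.02, 12.14, 12.42 and 12.37 in day 14 phenformin hearts and 13.34, 12.64, 13.53 and 13.35 in day 14 controls. At day 3 they were 13.04, 12.33, 12.15 and 13.11 with phenformin and 13.16, 13.23, 13.48 and 13.62 in controls. At day 3 all treated arrays lay below all controls, while at day 14 phenformin replicate 1 lay within the control range. The changes were -0.73 at day 14 (SE 0.236, adjusted p = 0.262), -0.72 at day 3 (SE 0.236, adjusted p = 0.253) and -0.72 over both days (SE 0.167, 95% interval -1.075 to -0.369, adjusted p = 0.0448). The call was lost in 19 of 29 alternatives, 12 of them with 1 array left out, with adjusted p from 0.0182 to 0.148 over all 29. A dimmer second probe set of Acadsb had changes of -0.407 at day 14 and -0.209 at day 3.

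Other enzymes of the isoleucine and valine branches did not pass. Hsd17b10 encodes another dehydrogenase of the isoleucine branch. Its changes were 0.039 at day 14 and 0.31 at day 3 (SE 0.0864 each, adjusted p = 0.907 and 0.147). All treated arrays lay above all controls at day 3, at 12.00, 12.05, 12.07 and 11.89 with phenformin against 11.80, 11.76, 11.50 and 11.71 in controls. Pccb, the beta subunit of propionyl-CoA carboxylase, had 0.15 at day 14 and 0.28 at day 3 (SE 0.105 each), also apart at day 3, with adjusted p = 0.353 there. Echs1, an enoyl-CoA hydratase shared with fatty acid oxidation, had -0.11 at day 14 and 0.098 at day 3 (SE 0.0994 each). In controls over time, Auh had 0.26 (SE 0.0709, adjusted p = 0.212), Hsd17b10 0.30 (SE 0.0864, adjusted p = 0.243) and Echs1 0.31 (SE 0.0994, adjusted p = 0.300). In Auh, Hsd17b10 and Echs1, named for their small p, day 14 controls lay above all day 3 controls. This held in 5 of the 24 genes, against 2.52% of all genes. At day 3, treated arrays lay above all controls in 2 of the 24 and below them in 1. The shares of all genes were 2.34% and 3.87%.

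Klf15, a Krüppel-like factor known in mouse heart and muscle to promote expression of this pathway, had a change of -0.33 at day 14 (SE 0.177, adjusted p = 0.529) and -0.18 at day 3 (SE 0.177, adjusted p = 0.846). Its levels at day 14 were 5.95, 6.10, 6.13 and 6.197 with phenformin and 6.66, 6.63, 6.57 and 5.83 in controls. Control replicate 4 lay below every treated array, and the other 3 controls above them. Over time in controls Klf15 had 0.25 (SE 0.177). Neither of the transporters named here passed the test: Slc25a44, the mitochondrial carrier of branched-chain amino acids, had -0.017 at day 14 and -0.17 at day 3 (SE 0.0992 each), and the plasma membrane carrier Slc7a5 had -0.078 at day 14 and -0.080 at day 3 (SE 0.0971 each).

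**Figure D4:**
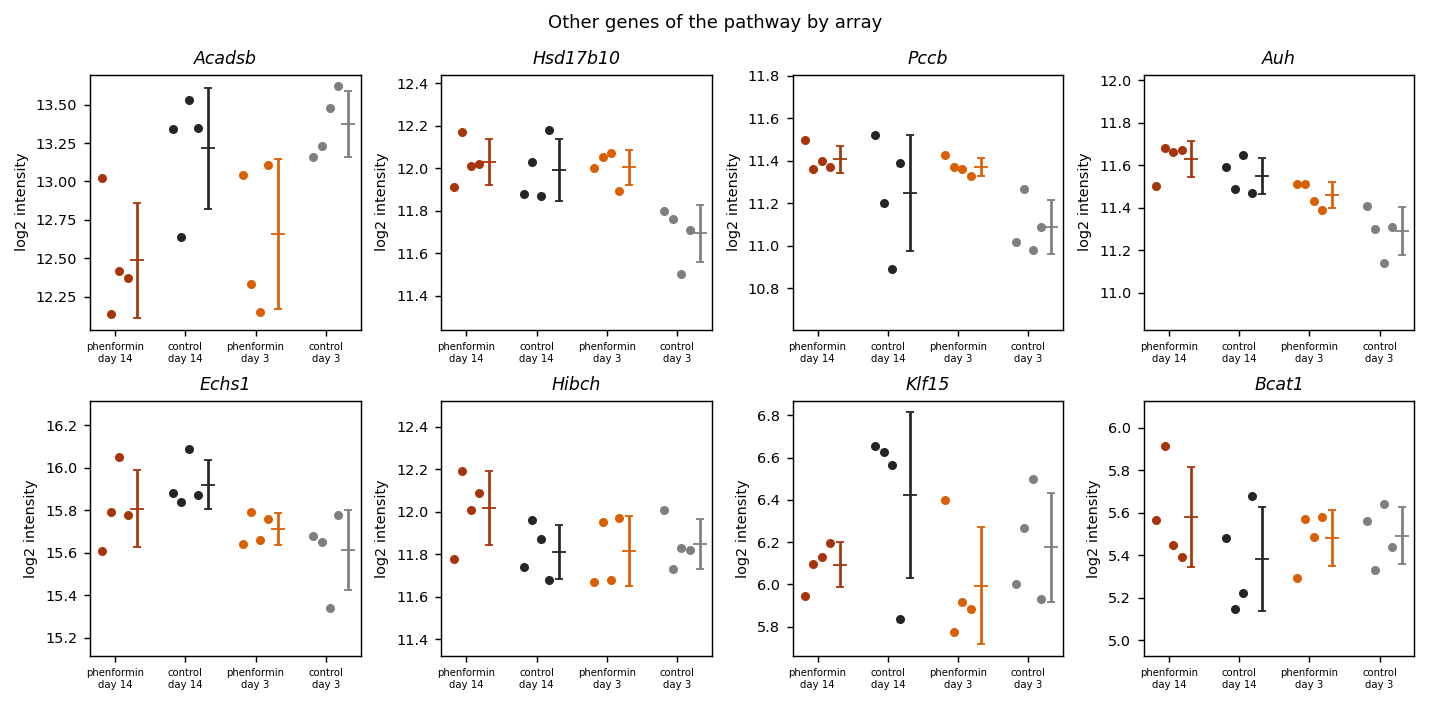
Log2 intensity of 8 other pathway genes in each array (vertical axis, its own range in every panel) by group, with 4 arrays a group as points and the mean ± SD beside them. Acadsb is lowest in the phenformin groups, with means of 12.49 at day 14 and 12.66 at day 3 against 13.21 and 13.37 in controls.

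**Figure D5:**
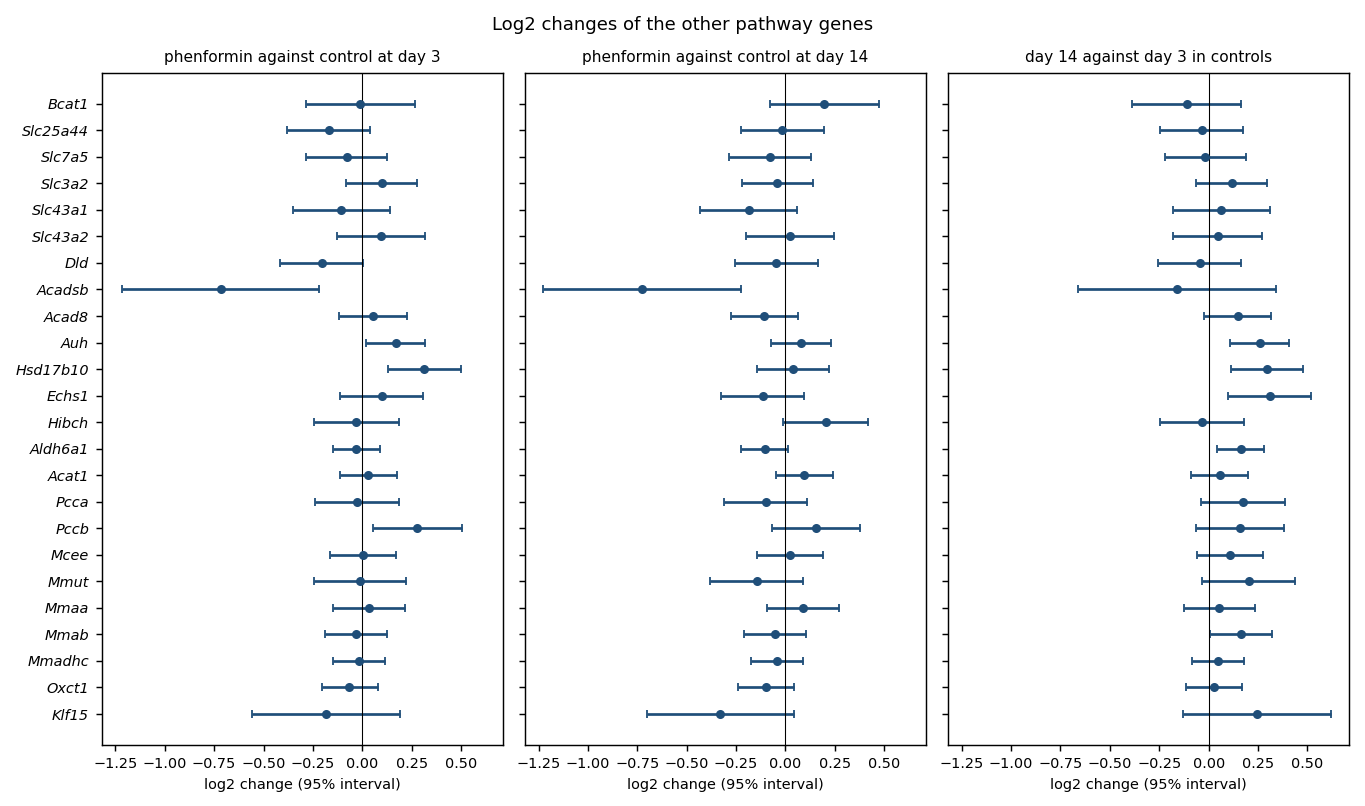
Log2 changes of 24 other pathway genes (horizontal axis) with 95% intervals from the fit over 16 arrays, in the same 3 comparisons. Acadsb lies farthest from 0 in both drug comparisons, at -0.73 at day 14 and -0.72 at day 3.

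The genes whose levels were most like those of Ivd over the 16 arrays were Aldh4a1 (Pearson r = 0.898), Coasy (0.839), Aldh2 (0.834), Nfkbib (0.823) and Agpat1 (0.7999). Spearman's rho was 0.797, 0.8, 0.753, 0.794 and 0.6 in the same order. Without the 2 arrays farthest from the median of Ivd, r was 0.8293, 0.767, 0.747, 0.790 and 0.684. With group means removed it was 0.589, 0.539, 0.174, 0.618 and 0.385, so for Aldh2 most of the likeness lay between groups. These genes were picked for their r, so no p is given for it. Aldh4a1, an enzyme of proline breakdown, has a second, dimmer probe set whose r with Ivd was 0.339. At day 14 the change of Aldh4a1 was -0.517 (SE 0.0910) and it fell past the test, with adjusted p = 0.0466, but 24 of 30 alternatives lost that call, 15 of them with 1 of 16 arrays left out. Its dimmer probe set had -0.041 at day 14. Over both days Aldh4a1 had -0.305 (adjusted p = 0.0293, lost in 12 of 29 alternatives) and Agpat1 -0.211 (adjusted p = 0.0399, lost in 21 of 29). Aldh2, the mitochondrial aldehyde dehydrogenase, had -0.365 at day 14 (adjusted p = 0.0679) and 0.417 over time in controls (adjusted p = 0.0659). Coasy and Nfkbib passed in none of the 5 comparisons. Being chosen for their likeness to Ivd, these genes are no independent evidence of its pattern.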

How the data were processed

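The deposited intensities, 1 value for each of 68842 probe sets in 16 arrays, were made by the authors with RMA, per the submitters' processing notes; its version is not given there. RMA corrects background, normalises by quantiles and summarises probes, which can compress small differences of dim genes. Among the listed markers the mean log2 level reached 19.85, for Actc1. Whether the deposited scale compresses or stretches log2 changes was not tested. Labelling started from 300 ng of RNA, per the labels' protocols. The platform annotation gave 1 symbol to 23446 probe sets, several to 505 and none to 44891; the brightest single-symbol probe set stood for each of 22093 genes. All 10 gene IDs matched current RefSeq genes.

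The log2 of each intensity was fitted in limma 3.58.1 (R 4.3.3) with 1 mean per group over all 16 arrays, a mean-variance trend, and two-sided Benjamini-Hochberg adjusted p under 0.05 over all genes within a comparison. No filter on dim genes was applied. The fit was also run on simulated data with independent genes and changes added to day 3 phenformin only. The outcome of that run is not given and lends no support to the values here. The genes, lists, tests and alternatives were chosen with earlier results of these data known. Named genes were the 10, the other pathway genes past the test or else the 3 of smallest p in a comparison, Klf15, Bcat1, and the 5 most like the gene of smallest p; Dld, Slc25a44, Slc7a5 and the remaining values of such genes were added for their place in the pathway after values were seen. Same-numbered arrays of different groups had correlations of their deviations between -0.185 and 0.216, so the numbers were not taken as pairs.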

Additional observations from a re-analysis of the deposited data

Results flagged for a closer look

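In a group of 4 arrays, 1 array was marked where its gap to the nearest other exceeded Dixon's critical value for the group's range. Chance marks about 1 in 20 groups, and here 7 of 92 were marked. Mccc2 accounted for 3 of them: day 14 phenformin replicate 1 at 11.911 (others 12.157 to 12.174), day 14 control replicate 3 at 11.371 (others 12.225 to 12.298) and day 3 phenformin replicate 1 at 11.457 (others 11.871 to 11.945). Auh in day 14 phenformin replicate 1 stood at 11.502 (others 11.657 to 11.681). Echs1 in day 14 control replicate 3 stood at 16.086 (others 15.844 to 15.881). Klf15 in day 14 control replicate 4 stood at 5.835 (others 6.567 to 6.656). Agpat1, among the genes most like Ivd, stood at 10.499 in the same array (others 10.409 to 10.424). None of the 10 genes passed a test of the difference between the drug effects of the separate days, and none had all treated arrays on opposite sides of controls at the 2 days.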

How the results depend on the processing

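The number of the 10 genes past the test was 0 in all 5 comparisons. It was 1 over time in controls when genes under the 25th percentile were left out (Ivd), and 1 over both days with array weights (Dbt). Leaving out each array in turn gave 0 to 1 over both days and 0 in the other 4 comparisons. It was 0 under every other alternative run: quantiles normalised again, medians aligned, normal scores of ranks, no trend or a robust one, only the arrays compared, mean or all probe sets, genes above a mean of 16 left out, adjusted p under 0.01, and, chosen after seeing the data, without both arrays farthest on the first principal component. With the replicate block it was 0 in all 5, and Acadsb over both days had adjusted p = 0.0266; over all genes the block moved the calls at day 14 to 5, against 16 without it. No result of the 10 genes whose interval excluded 0 changed sign; 39 of 1480 values did so with intervals that included 0. The count of the 10 genes above 0 over time in controls was 9 or 10, and the count below 0 at day 14 was 8 to 10. No scaling moved the median of all genes by over 0.1, but the median of the 10 genes did move. Over time in controls it was 0.305, against 0.254 with quantiles normalised again and 0.146 with normal scores of ranks. At day 14 with phenformin it was -0.109, against -0.097 and -0.065. Normal scores are on another scale than log2 intensity. The 4 arrays per group limit the precision of every value.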
